A study of Mus musculus with 12 samples.

Results

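The endoplasmic reticulum (ER) is where a cell makes the proteins that it secretes or packs into granules. A nascent protein enters the ER through the Sec61 channel, loses its signal peptide, receives sugar chains and folds with the help of chaperones and disulfide isomerases, and chains that fail to fold are pulled back out and degraded. When unfolded chains build up, the sensors IRE1 (Ern1), PERK (Eif2ak3) and ATF6 start the unfolded protein response (UPR), which acts through the factors XBP1, ATF4 and ATF6 to raise the chaperones. Neutrophil precursors use this route first for primary granule enzymes such as myeloperoxidase and elastase and later for secondary and tertiary granule proteins such as lactoferrin. Described here are 41 genes of this machinery chosen by name, out of 23309 genes with an FPKM value in all 12 libraries. They comprise 5 genes of the translocon, 4 of the translocon-associated protein (TRAP) complex, 3 of the signal peptidase, 4 of the oligosaccharyltransferase, 11 chaperones and co-chaperones, 5 disulfide and prolyl isomerases, 3 genes of ER-associated degradation and 6 UPR sensors and factors. All 41 passed the filter on low values (at least 1 FPKM in at least 2 libraries), as did 11516 genes in all.

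The libraries are polyA RNA-seq of mouse myeloid progenitors, in 6 groups of 2 libraries, which the study describes as biological duplicates. Both genotypes were c-Kit positive bone marrow cells immortalized by a retrovirus with HoxB8 fused to the estrogen receptor, and both grew in IL-3. Estradiol (E2) keeps this fusion active and the cells immature, and its withdrawal lets them differentiate. Wild-type (WT) cells were taken at 0 h (in E2), 36 h and 96 h after E2 withdrawal, and at the same times HMGN1-OE cells, whose donors were transgenic for human HMGN1. The promoter of the transgene, the age and sex of the mice, and whether the 2 libraries of a group came from separate mice are not given in the sources used here, so p-values measure only the spread between these libraries. Equal numbers of cells were lysed, and synthetic spike-in RNAs were added to each RNA sample. The sources name different routes from the reads to the table, but in the table itself the 92 spike-ins summed to between 2700 and 2941 FPKM in each of the 12 libraries, while the genes summed to between 228955 and 1442573 FPKM. A level below is therefore FPKM relative to the spike-ins. This is a per-cell scale as far as equal numbers of cells were lysed and their RNA was recovered alike. A difference is in log2(FPKM + 1), which understates the change of low genes. Values of a pair of libraries follow the order of the table.

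Mouse Hmgn1 itself ranged from 85.7 to 200.6 FPKM at 0 h and from 134 to 188 FPKM at 36 h, and the libraries of the 2 genotypes overlapped at both times. The transgene's reads were not analysed here. The median log2 level of all tested genes differed between the WT libraries at 0 h (3.91 and 4.78) and at 96 h (2.99 and 2.02), so each difference below is given beside the median of all tested genes and, where it matters, after each library was centred on its own median. The WT libraries at 36 h differed more from each other (SD of the centred log2 difference 0.701) than the second of them did from the first WT library at 0 h (0.474). Likewise, the second WT library at 0 h differed less from the first at 36 h (0.546) than from the first at 0 h (0.567). By this measure the WT libraries at 0 and 36 h did not group by time, which limits each WT comparison of these times. Flt3, a progenitor receptor, stood at 4.10 and 67.0 FPKM in the WT libraries at 36 h, and at 47.45 and 67.32 FPKM at 0 h. Ly6c2, a monocyte and granulocyte precursor antigen, stood at 2179 and 275 FPKM at 36 h, and at 92.3 and 845.5 FPKM at 0 h. The neutrophil alarmin S100a9 was listed at 0.051 FPKM in the first WT library at 96 h and between 26550 and 73460 FPKM in the other 96 h libraries. Whether this is a failed estimate is not known, and the shares of that library given below rest on a total without it. At 96 h progenitor markers summed to between 16.8 and 44.9 FPKM, against 695 to 1780 at 0 and 36 h, and neutrophil maturation markers to between 56100 and 157000 FPKM, against 168 to 2630.

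Many ER chaperone genes are known to carry an ER stress response element (ERSE) near their start, which ATF6 binds together with NF-Y. The promoter windows of RefSeq on GRCm38.p6, from 250 bases before to 50 bases after the start, were searched on both strands for 4 elements. These were the ERSE (CCAAT, any 9 bases, CCACG), the ERSE-II (ATTGG, 1 base, CCACG), the UPR element TGACGTGG, and TGATGNAAN, the core of the element of ATF4 and C/EBP factors. Windows were found for 35 of the 41 genes (36 windows), and not for Sec61a1, Ssr2, Spcs3, Hyou1, Manf and Atf6. The ERSE was in 8 of the 36 windows (22.2%) and in 39 of all 32851 windows (0.119%). The stretches below are shown because they are an ERSE from each of 5 chaperone and isomerase genes, the ERSE of the ubiquitin ligase gene Syvn1, and the ERSE-II of Herpud1, a degradation gene whose transcript fell less than those of these 5 at 96 h. Each is 60 bases long, 5′ to 3′ on the strand of the gene and upstream of the start, with the element in capitals, from CCAAT to CCACG, or from CGTGG to ATTGG where it lies in reverse.
Hspa5 (chr2:34772004-34772063, plus strand): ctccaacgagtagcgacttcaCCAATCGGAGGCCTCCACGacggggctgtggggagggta
Calr (chr8:84847055-84847114, minus strand): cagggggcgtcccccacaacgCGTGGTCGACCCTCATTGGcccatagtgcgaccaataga
Hsp90b1 (chr10:86705513-86705572, minus strand): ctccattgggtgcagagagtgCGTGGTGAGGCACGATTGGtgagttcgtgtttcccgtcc
Canx (chr11:50325780-50325839, minus strand): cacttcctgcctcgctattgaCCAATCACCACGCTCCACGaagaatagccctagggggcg
Pdia6 (chr12:17266470-17266529, plus strand): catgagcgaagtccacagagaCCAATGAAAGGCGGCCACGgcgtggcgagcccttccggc
Syvn1 (chr19:6046511-6046570, plus strand): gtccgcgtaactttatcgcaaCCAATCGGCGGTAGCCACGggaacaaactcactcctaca
Herpud1, ERSE-II from ATTGG to CCACG (chr8:94386352-94386411, plus strand): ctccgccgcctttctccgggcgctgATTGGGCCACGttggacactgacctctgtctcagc

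The ERSE of Hspa5 ended 47 bases before the start and that of Syvn1 26 bases before it. Hsp90b1 held a further ERSE, and Creld2 and Dnajc3 held 1 each. The ERSE-II was in 2 of the 36 windows (5.56%), those of Herpud1 and Dnajb11, and in 12 of all windows (0.0365%). TGACGTGG was in none of the 36 windows and in 0.676% of all windows, and TGATGNAAN was in 1, that of Herpud1 (2.78%), against 3.95% of all windows. Among 58 other ER genes, the ERSE was in 1 of 50 windows (2.0%). A match is a description of letters and not evidence that a factor binds there.

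The ER genes were among the most abundant transcripts of the progenitors. Per kilobase of transcript, the median of the 41 genes stood between the 94.5th and 95.5th percentile of the tested genes in the 8 libraries at 0 and 36 h, and 28 or 29 of the 41 lay above the 90th percentile. Calr, the lectin-like chaperone calreticulin, was the highest at every one of these libraries, from 2064 to 4924 FPKM. P4hb, the protein disulfide isomerase that forms and reshuffles disulfide bonds, ranged from 733 to 1722 FPKM in the same libraries, Hspa5, the Hsp70 chaperone BiP, from 561 to 1253 FPKM, and Sec61b, a subunit of the channel, from 613 to 1253 FPKM. Of the UPR genes, Xbp1 (211 to 590 FPKM) and Atf4 (287 to 719 FPKM) were also abundant, and others were among the lowest of the 41. Eif2ak3, the kinase PERK, lay between 10.2 and 20.8 FPKM, and Ddit3, the stress factor CHOP, between 10.2 and 22.2 FPKM.

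**Figure D1:**
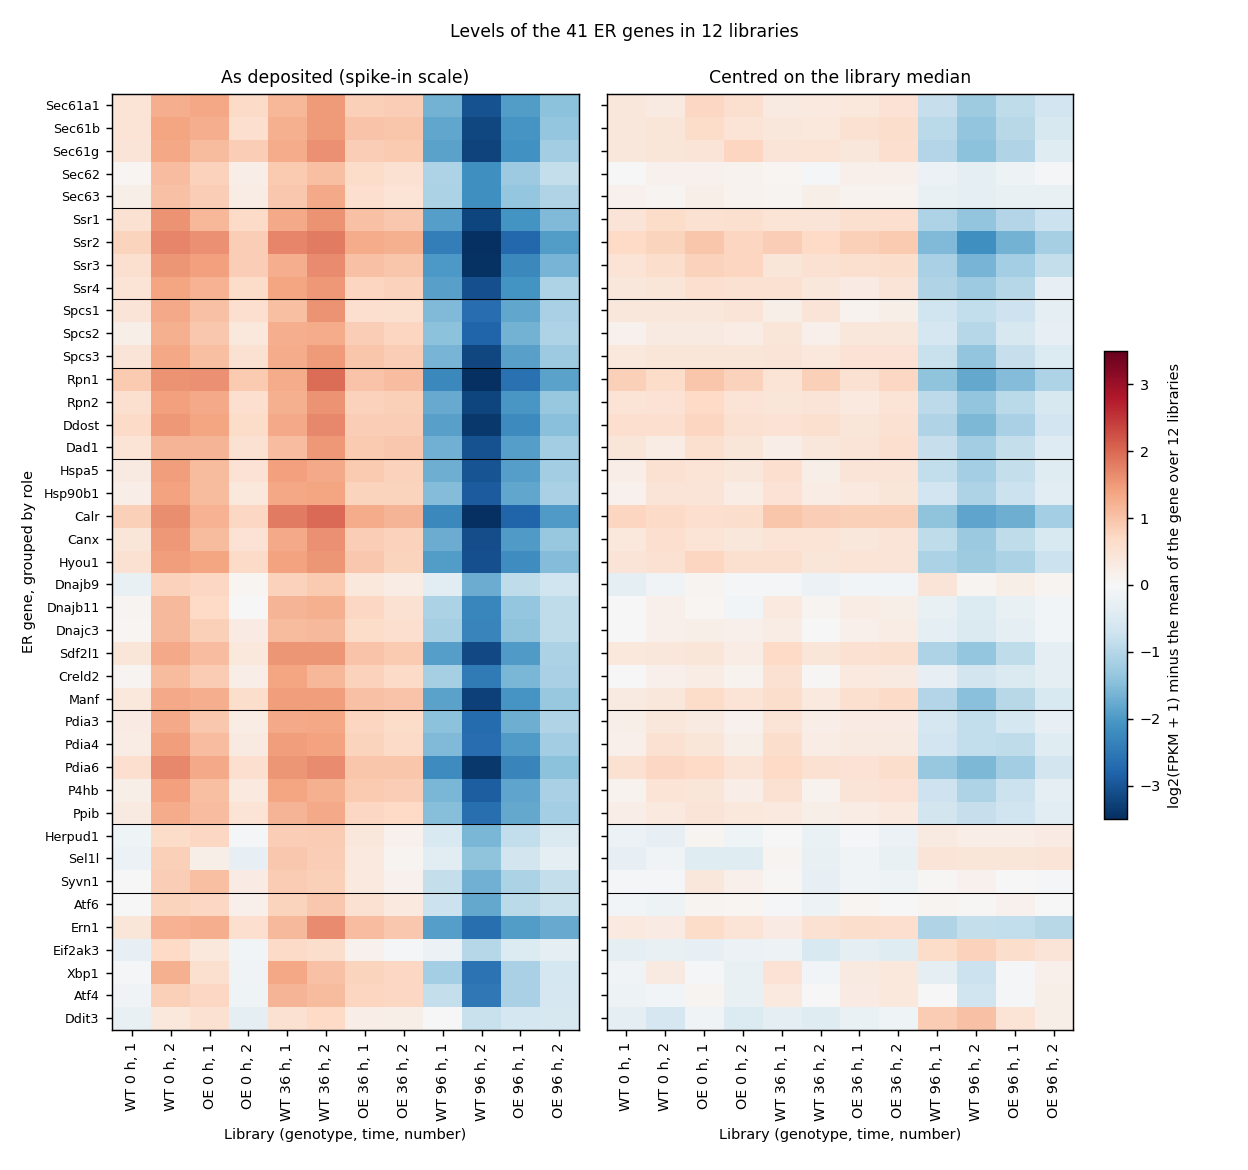
Level of the 41 ER genes (rows, grouped by role and parted by black lines) in the 12 libraries (columns), as log2(FPKM + 1) minus the mean of the gene over the libraries, on the deposited scale (left) and after centring each library on its median (right). The 96 h libraries are blue for all but a few rows on the left, while on the right Herpud1, Sel1l, Eif2ak3 and Ddit3 are red at 96 h.

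From 0 to 36 h the ER genes held a near constant share of the transcriptome while 3 of 7 primary granule transcripts rose in HMGN1-OE cells. The 41 genes together held 1.64 and 1.73% of all FPKM in WT and 1.73 and 1.67% in HMGN1-OE libraries at 0 h. At 36 h they held 1.77 and 1.65% in WT and 1.73 and 1.69% in HMGN1-OE libraries. The 8 shares thus spanned 1.64 to 1.77%, with the times and genotypes interleaved. Hspa5 stood at 561 and 1253 FPKM in WT cells at 0 h and at 1210 and 1131 FPKM at 36 h, and in HMGN1-OE cells at 970 and 637 FPKM at 0 h and at 845 and 790 FPKM at 36 h. In both genotypes the 36 h libraries lay within the range of those at 0 h.

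None of the 41 genes was called between 0 and 36 h (adjusted p under 0.05 in limma, Benjamini-Hochberg), and none had an unadjusted p under 0.05, in either genotype. After each library was centred on its median none was called either, and 1 of the 41 had an unadjusted p under 0.05 in HMGN1-OE cells (Syvn1, -0.44, limma adjusted p = 0.163), against 14.8% of all tested genes, and none in WT cells. Among all tested genes, 0.617% were called in WT and 1.8% in HMGN1-OE cells. In WT cells all 41 genes were higher at 36 h by fit, with a median log2 difference of 0.52 beside 0.47 for all tested genes, and in 13 of the 41 both 36 h libraries lay above both 0 h libraries, against 25.7% of all tested genes. The values ran from 0.39 for Rpn1, an oligosaccharyltransferase subunit, to 0.79 for Atf4, the factor that PERK signalling raises in translation (adjusted p = 0.612 and 0.589 in limma). The median fell to 0.04 without the first WT library at 0 h and was 0.04 with each library centred on its median. In HMGN1-OE cells 25 genes were higher and 16 lower, with a median of 0.05 beside 0.06 for all tested genes. Leaving out a library moved this median to between -0.29 and 0.36. With all libraries, the values in HMGN1-OE cells ran from -0.41 for Syvn1, the ubiquitin ligase HRD1, to 0.54 for Xbp1, the transcription factor of the IRE1 branch, both with an adjusted p of 1.0 in limma. Xbp1 was 341 and 211 FPKM at 0 h and 397 and 383 FPKM at 36 h in HMGN1-OE cells, and in no other member did both 36 h libraries lie above both of 0 h, against 14.3% of all tested genes. The difference between genotypes in the change from 0 to 36 h was called for 0 of 41 genes and for 0.504% of all tested genes.

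Over the same interval, 3 of the 7 primary granule transcripts were called higher in HMGN1-OE cells. Mpo, which encodes myeloperoxidase, went from 540 and 642 FPKM at 0 h to 4147 and 2451 FPKM at 36 h, a log2 fold change of 2.43 (SE 0.62, limma adjusted p = 0.00664). Elane, neutrophil elastase, went from 106 and 74.0 FPKM to 1772 and 1260 FPKM (4.06, SE 0.60, adjusted p = 4.19e-09), and Prtn3, proteinase 3, from 708 and 467 FPKM to 3062 and 2412 FPKM (2.24, SE 0.62, adjusted p = 0.02). The other 4 (Ctsg, Ms4a3, Prss57 and Ctsc) were not called. Of these, Ms4a3 is counted in the list of 7 as a marker of granulocyte precursors, and encodes a membrane protein, not a granule protein. With each library centred on its median the 3 fold changes stayed within 0.1 of these values, but none of the 7 genes was called (smallest adjusted p = 0.0559). The calls of Mpo and Prtn3 were lost when any HMGN1-OE library at 0 or 36 h was left out (adjusted p = 0.065 to 0.718 for Mpo and 0.115 to 0.715 for Prtn3), with fold changes of 2.06 to 2.81 and 1.94 to 2.54. The call of Elane held in each of these fits, but like those of Mpo and Prtn3 it was lost with no filter on low values (adjusted p = 0.463).

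Of the 10 secondary and tertiary granule genes, 5 were called lower and 1 higher from 0 to 36 h in HMGN1-OE cells. The 5 were Camp (-3.39), Ngp (-3.21), Mmp8 (-3.08), Ltf (-3.05) and Chi3l3 (-2.84), with limma adjusted p from 9.27e-07 to 0.000148. After centring the changes were of the same size (-3.42 for Camp to -2.87 for Chi3l3), but none of the 5 was called (adjusted p = 0.0714 to 0.225), nor was any with no filter on low values, and without the second HMGN1-OE library at 36 h only Mmp8 was. Chi3l3 was also not called without the first HMGN1-OE library at 0 h (-2.46, adjusted p = 0.0914). The gene called higher was Fcnb, the granule lectin ficolin B, by 3.78 (SE 0.55, limma adjusted p = 1.29e-09), which stayed called after centring but not with no filter (adjusted p = 0.143). In WT cells 1 of the 10 was called lower, Ltf, and none after centring.

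In WT cells none of the 7 primary granule genes was called between 0 and 36 h. Elane stood at 409 and 867 FPKM at 0 h and at 2864 and 1109 FPKM at 36 h, and its log2 fold change was 1.58 (SE 0.60, limma adjusted p = 0.589). Mpo stood at 2107 and 4406 FPKM at 0 h and at 7066 and 5507 FPKM at 36 h (1.03, SE 0.62, adjusted p = 0.589). The difference between the genotypes in this change did not pass for Elane (2.48, SE 0.85, adjusted p = 0.446) or Mpo (1.4, SE 0.87, adjusted p = 0.873). The WT libraries at 36 h are also those that differ most from each other.

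Set against the ER genes, the summed FPKM of the 7 primary granule genes was 0.791 and 0.891 times that of the 41 ER genes in WT cells at 0 h, and 0.508 and 0.552 times in HMGN1-OE cells. At 36 h the ratio was 1.17 and 0.879 in WT and 1.15 and 0.964 in HMGN1-OE cells. Both HMGN1-OE libraries at 36 h thus lay above both at 0 h, whereas the WT libraries of the 2 times overlapped. An exact permutation test of 2 libraries against 2 cannot go below p = 0.333, so these sums were not tested. The primary granule sums include Ms4a3, at 1343 to 4053 FPKM at 0 and 36 h, and so do not count granule proteins alone. The 10 secondary and tertiary granule genes summed to at most 0.0441 times the ER genes in any library at 0 or 36 h.

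**Figure D2:**
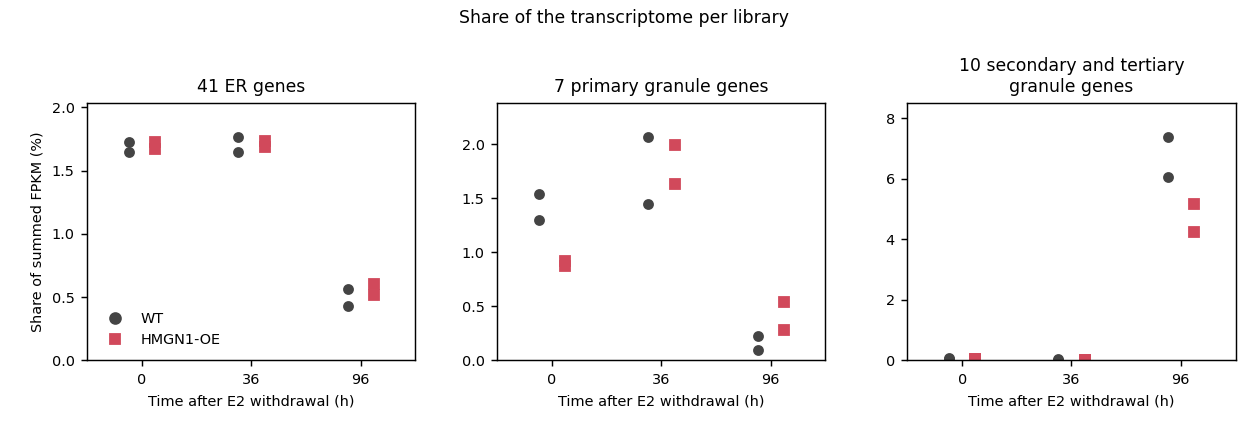
Share of the summed FPKM of a library (%, each axis from 0) held by the 41 ER genes, the 7 primary granule genes and the 10 secondary and tertiary granule genes, by hours after E2 withdrawal, with 1 point for each library. The ER share lies between 1.64 and 1.77% in every library at 0 and 36 h and between 0.431 and 0.602% at 96 h, when the secondary and tertiary granule genes hold 4.25 to 7.39%. The highest of these is the WT library in which S100a9 is listed at 0.051 FPKM.

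The genotypes did not differ detectably in the ER genes at 0 or 36 h. At 0 h none of the 41 was called or had an unadjusted p under 0.05, beside 1.36% called among all tested genes. After centring none was called, and 2 had an unadjusted p under 0.05, Syvn1 (0.37, limma adjusted p = 0.686) and Atf6 (0.22, adjusted p = 0.806), against 5.64% of all tested genes. The median difference of HMGN1-OE from WT cells was -0.06 (all tested genes -0.12), with Xbp1 lowest at -0.39 and Syvn1 highest at 0.23 (adjusted p = 1.0 for both in limma), and leaving out a library at 0 h moved the median to between -0.53 and 0.44. Of the primary granule genes 2 of 7 already differed, Mpo by -2.37 (SE 0.62, limma adjusted p = 0.0109) and Elane by -2.74 (SE 0.60, adjusted p = 0.00066). Both calls were lost without the second WT library at 0 h (-1.84 and -2.2, adjusted p = 0.831 and 0.251) and without the second HMGN1-OE library (-2.49 and -2.48, adjusted p = 0.112 and 0.0948), and that of Mpo also without the first (adjusted p = 0.382). After centring the differences were -2.24 and -2.61 and neither was called (adjusted p = 0.618 and 0.431), nor was either with quantile normalization or with no filter on low values.

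At 36 h both HMGN1-OE libraries lay below both WT libraries for all 41 ER genes, but so they did for 84.4% of all tested genes. The differences ran from -0.74 for Spcs1, a signal peptidase subunit (297 and 431 FPKM in WT, 216 and 212 FPKM in HMGN1-OE cells, and -1.01 to -0.47 with a library left out), to -0.37 for Dad1, an oligosaccharyltransferase subunit, with a median of -0.55 beside -0.54 for all tested genes. Hspa5 differed by -0.52 (SE 0.61, limma adjusted p = 0.496). None of the 41 was called, beside 1.26% of all tested genes. The standard errors of the members ranged from 0.49 to 0.62, so a uniform difference of this size could not be detected. After each library was centred on its median, the differences ran from -0.16 to 0.21 with a median of 0.03, with 23 genes higher and 18 lower and none called, at standard errors from 0.076 to 0.232. Mpo differed by -0.97 at 36 h (SE 0.62, limma adjusted p = 0.496), and none of the 7 primary granule genes was called. Of the 10 secondary and tertiary granule genes, 9 had a lower fitted level in HMGN1-OE cells and 4 were called, Mmp8 (-2.79), Camp (-2.27), Ngp (-2.12) and Chi3l3 (-2.10), with limma adjusted p from 3.15e-05 to 0.0328. Both HMGN1-OE libraries lay below both WT libraries for Mmp8, Camp, Ngp and Lcn2, while those of Chi3l3 overlapped. After centring none was called (smallest adjusted p = 0.697), and 5 of the 10 were lower by fit. The calls of Ngp and Chi3l3 were each lost in 14 of 20 alternatives, that of Camp in 7 and that of Mmp8 in 3. Without the second HMGN1-OE library at 36 h Camp, Ngp and Chi3l3 were not called (-1.26, -0.97 and -0.79), nor without the first WT library (-2.02, -1.76 and -1.10), and Camp and Ngp not without the second (-2.53 and -2.48), whereas Mmp8 was called in each of these fits.

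**Figure D3:**
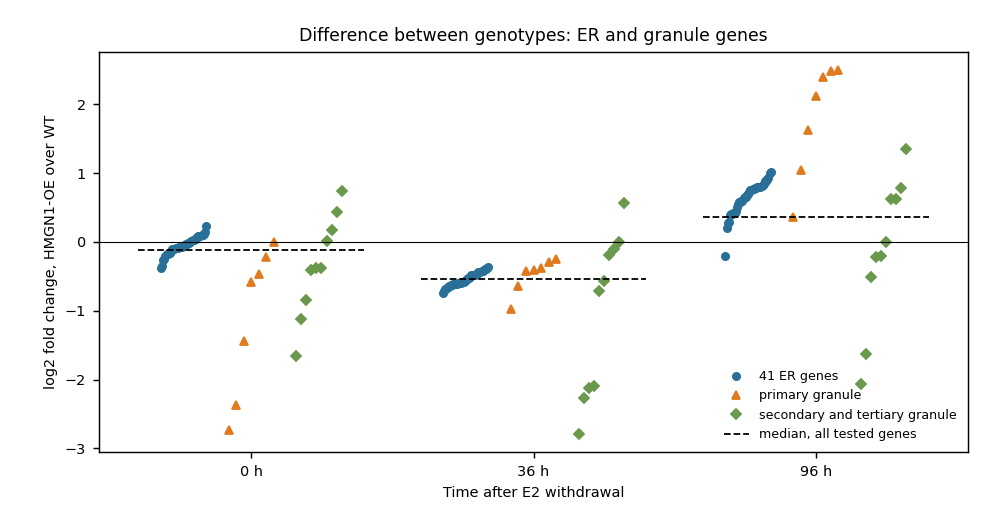
Log2 fold change of HMGN1-OE over WT cells at 0, 36 and 96 h for the 41 ER genes (circles), the 7 primary granule genes (triangles) and the 10 secondary and tertiary granule genes (diamonds), with 1 point for each gene in order of its value and a dashed line at the median of all tested genes. The ER genes stay close to the dashed line at 0 and 36 h and lie mostly above it at 96 h, while granule genes spread more widely at all 3 times.

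At 96 h the ER machinery fell in both genotypes and, at the median, further than all tested genes. In WT cells 40 of the 41 genes were lower than at 36 h (limma, adjusted p under 0.05), all but Ddit3, and in all 41 both 96 h libraries lay below both 36 h libraries. The background was high, with 89.5% of all tested genes called, 86.3% called lower and 90.4% lower without overlap. The median log2 fold change was -3.58, beside -2.21 for all tested genes, and it was -2.97 without the second WT library at 96 h and -4.22 without the first. In HMGN1-OE cells 36 of the 41 were called lower, all but Dnajb9, Herpud1, Sel1l, Eif2ak3 and Ddit3, and all 41 were lower without overlap, against 69.0% of all tested genes called, 64.9% called lower and 87.6% lower without overlap. The median there was -2.36, beside -1.33, and it was -1.93 without the first HMGN1-OE library at 96 h and -2.73 without the second. After centring, 33 of 41 in WT (33.7% of all tested genes) and 32 of 41 in HMGN1-OE cells (32.3%) were still called lower, with medians of -1.26 and -1.02 beside 0.11 and 0.01 for all tested genes. In bulk RNA, fewer cells of a type and less RNA per cell cannot be told apart.

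By share, the 41 genes fell to 0.563 and 0.431% of all FPKM in WT and 0.516 and 0.602% in HMGN1-OE libraries at 96 h, below all 8 earlier libraries. Leaving S100a8 and S100a9 out of the total, the shares were 0.667, 0.57, 0.7 and 0.837% in the same order. The median percentile of the genes fell to between 87.7 and 91.3, and between 17 and 22 of the 41 remained above the 90th percentile.

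The translocon, the entry gate of the ER, fell in both genotypes. Sec61b, a small subunit of the channel, stood at 1054 and 1253 FPKM in WT cells at 36 h and at 125 and 47.3 FPKM at 96 h, a log2 fold change of -3.88 (SE 0.61, limma adjusted p = 9.33e-10). In HMGN1-OE cells it went from 883 and 871 FPKM to 105 and 172 FPKM (-2.69, SE 0.61, adjusted p = 5.54e-05). All 5 translocon genes were called lower in both genotypes, and Sec62 and Sec63, the accessory subunits that assist import after translation, had the smallest changes, -2.60 and -2.76 in WT and -1.64 and -1.74 in HMGN1-OE cells. In HMGN1-OE cells the call of Sec62 was lost without the first library at 36 h or the first at 96 h (adjusted p = 0.0612 and 0.09) and that of Sec63 without the first at 96 h (adjusted p = 0.0594). After quantile normalization the WT change of Sec62 was -0.14 (adjusted p = 0.105).

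The TRAP complex, which sits beside the channel and helps selected chains to insert, had the lowest group median, -4.11 in WT and -2.87 in HMGN1-OE cells. Ssr2 stood at 742 and 809 FPKM in WT cells at 36 h and at 42.1 and 13.8 FPKM at 96 h (-4.94, SE 0.59, limma adjusted p = 2.21e-15), the largest fall among the 41. In HMGN1-OE cells it went from 565 and 546 FPKM to 33.4 and 58.5 FPKM (-3.62, SE 0.59, adjusted p = 2.47e-08). As a ratio of mean FPKM, Ssr2 at 36 h was 27.8 times that at 96 h in WT and 12.1 times in HMGN1-OE cells. After centring the changes were -2.62 and -2.28, and both were called.

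All 3 signal peptidase genes and all 4 oligosaccharyltransferase genes were called lower in both genotypes, but Spcs1 not in HMGN1-OE cells without the first library at 96 h (-1.70, limma adjusted p = 0.0614). Their group medians were -3.42 and -4.03 in WT and -2.16 and -2.61 in HMGN1-OE cells. Rpn1, ribophorin I, fell most among them, from 430 and 671 FPKM to 35.2 and 13.2 FPKM in WT cells (-4.57, SE 0.59, limma adjusted p = 1.13e-13). It went from 344 and 367 FPKM to 27.7 and 46.5 FPKM in HMGN1-OE cells (-3.27, SE 0.59, adjusted p = 3.74e-07).

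Of the 11 chaperones and co-chaperones, 11 were called lower in WT and 10 in HMGN1-OE cells, where Dnajb11 and Dnajc3 were not called without the first library at 96 h (limma adjusted p = 0.0874 and 0.0792), nor Dnajb11 without the first at 36 h (adjusted p = 0.0673) or after quantile normalization (-0.17, adjusted p = 0.126). Hspa5, with the ERSE shown above, fell from 1210 and 1131 FPKM to 137 and 54.5 FPKM in WT cells (-3.74, SE 0.61, limma adjusted p = 3.49e-09) and from 845 and 790 FPKM to 118 and 193 FPKM in HMGN1-OE cells (-2.43, SE 0.61, adjusted p = 0.000275). Calr went from 4395 and 4924 FPKM to 258 and 98.02 FPKM in WT cells (-4.86, SE 0.62, adjusted p = 1.26e-13) and from 3080 and 2855 FPKM to 179 and 317 FPKM in HMGN1-OE cells (-3.63, SE 0.62, adjusted p = 1.15e-07). Hsp90b1, the ER form of Hsp90, changed by -3.58 in WT and -2.27 in HMGN1-OE cells. Dnajb9, the BiP co-chaperone ERdj4, fell least of the group in WT cells, by 1.93 (SE 0.52, limma adjusted p = 0.000335), and was not called in HMGN1-OE cells (-1.09, SE 0.52, adjusted p = 0.0529).

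The 5 disulfide and prolyl isomerases were called lower in both genotypes, with medians of -3.54 and -2.31, but Pdia3 not in HMGN1-OE cells without the first library at 96 h (-1.76, limma adjusted p = 0.0589). Pdia6, a disulfide isomerase, fell most (-4.38 in WT and -2.84 in HMGN1-OE cells). Ppib, the ER cyclophilin, fell least in WT cells (-3.32). P4hb went from 1672 and 1516 FPKM to 211 and 84.8 FPKM in WT cells and from 1209 and 1157 FPKM to 178 and 289 FPKM in HMGN1-OE cells, with no overlap of the times in either genotype.

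**Figure D4:**
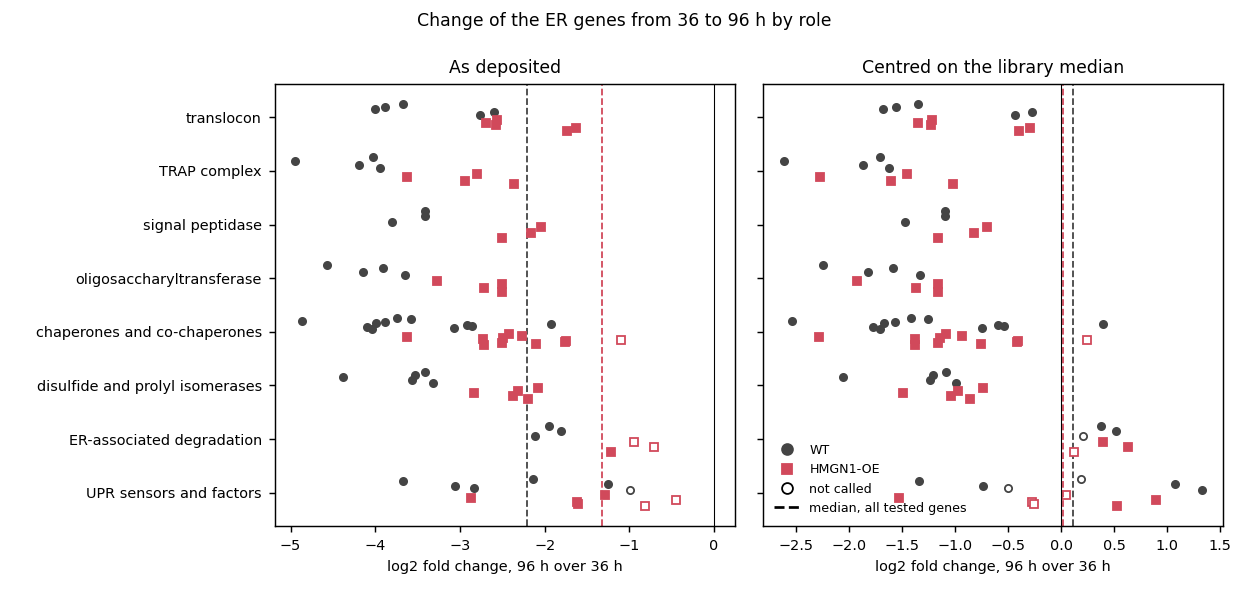
Log2 fold change from 36 to 96 h of each ER gene by role (rows), in WT (circles) and HMGN1-OE cells (squares), as deposited (left) and after centring each library on its median (right). Open symbols were not called, and dashed lines mark the median of all tested genes in each genotype. Translocation, glycosylation and folding genes lie left of the dashed lines in both panels except Dnajb9, while the 3 genes of ER-associated degradation and Atf6, Eif2ak3 and Ddit3 lie right of 0 after centring.

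Among the 41, the 3 genes of ER-associated degradation and several UPR genes had smaller changes. The 3 degradation genes had medians of -1.94 in WT and -0.94 in HMGN1-OE cells, above the medians of all tested genes (-2.21 and -1.33). This did not extend to 12 further degradation genes, of which 12 were called lower in WT and 8 in HMGN1-OE cells. Their medians were -2.27 and -1.31, with ranges of -3.32 to -0.70 and -2.35 to -0.28, and 7 of the 12 in WT and 6 in HMGN1-OE cells lay below the median of all tested genes. Herpud1, a membrane scaffold of the degradation complex, stood at 109 and 112 FPKM in WT cells at 36 h and at 40.7 and 19.2 FPKM at 96 h (-1.94, SE 0.55, limma adjusted p = 0.000634). In HMGN1-OE cells it went from 78.5 and 66.6 FPKM to 32.6 and 42.2 FPKM (-0.94, SE 0.55, adjusted p = 0.114). Sel1l, the partner of HRD1, went from 54.5 and 51.0 FPKM to 20.7 and 9.89 FPKM in WT (-1.81, SE 0.53, adjusted p = 0.000841) and from 35.3 and 29.8 FPKM to 17.3 and 21.9 FPKM in HMGN1-OE cells (-0.71, SE 0.53, adjusted p = 0.213). Syvn1, which encodes HRD1 and carries an ERSE, changed by -2.12 and -1.22 and was called in both genotypes, but in HMGN1-OE cells not without any of the 4 libraries compared (adjusted p = 0.0723 to 0.172).

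Among the 3 UPR sensors the transcripts parted. Ern1 (IRE1) fell with the folding genes, from 37.1 and 53.8 FPKM to 3.63 and 1.79 FPKM in WT (-3.67, SE 0.51, limma adjusted p = 5.23e-12) and from 35.7 and 32.8 FPKM to 3.49 and 4.14 FPKM in HMGN1-OE cells (-2.87, SE 0.51, adjusted p = 2.43e-07). Eif2ak3 (PERK) went from 20.5 and 19.5 FPKM to 10.6 and 5.71 FPKM in WT (-1.25, SE 0.49, adjusted p = 0.0132) and from 14.0 and 11.8 FPKM to 8.74 and 9.67 FPKM in HMGN1-OE cells (-0.44, SE 0.49, adjusted p = 0.407). Atf6 lay between them, at -2.14 in WT and -1.29 in HMGN1-OE cells. The WT call of Eif2ak3 was lost when any of 3 libraries was left out, either WT library at 36 h or the second at 96 h (-1.22, -1.29 and -0.86, adjusted p = 0.0635, 0.0534 and 0.127). The HMGN1-OE call of Atf6 was lost without any of the 4 HMGN1-OE libraries of these times (adjusted p = 0.0643 to 0.127). At 96 h Ern1 was the lowest of the 41 in every library, whereas at 0 and 36 h Eif2ak3 or Ddit3 was.

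Ddit3 changed least of the downstream factors, from 19.6 and 22.2 FPKM to 13.5 and 7.31 FPKM in WT (-0.99, SE 0.50, limma adjusted p = 0.0507) and from 15.8 and 15.5 FPKM to 8.39 and 8.62 FPKM in HMGN1-OE cells (-0.81, SE 0.50, adjusted p = 0.13). Xbp1 went from 590 and 472 FPKM to 101 and 38.1 FPKM in WT (-3.06, SE 0.59, adjusted p = 5.93e-07) and from 397 and 383 FPKM to 106 and 152 FPKM in HMGN1-OE cells (-1.61, SE 0.59, adjusted p = 0.0119). FPKM per gene does not separate spliced from unspliced Xbp1, so nothing here measures IRE1 activity. Atf4 changed by -2.83 in WT and by -1.6 in HMGN1-OE cells, and both were called. After centring Atf4 changed by -0.51 in WT (limma adjusted p = 0.0772) and by -0.26 in HMGN1-OE cells (adjusted p = 0.353) and Xbp1 by -0.27 in HMGN1-OE cells (adjusted p = 0.325), and none of these was called. In HMGN1-OE cells the calls of Xbp1 and Atf4 were lost without either library at 36 h or the first at 96 h (adjusted p = 0.0737 to 0.131 and 0.0805 to 0.143). Without that 96 h library 26 of the 41 ER genes were called lower in HMGN1-OE cells.

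Relative to the median of each library, 7 of the 41 genes were higher at 96 h than at 36 h in both genotypes: Dnajb9, Herpud1, Sel1l, Syvn1, Atf6, Eif2ak3 and Ddit3. In WT cells 5 of them were called (38.2% of all tested genes were called higher on this scale), led by Ddit3 at 1.33 (SE 0.15, limma adjusted p = 5.88e-05) and Eif2ak3 at 1.07 (SE 0.13, adjusted p = 9.15e-05). Sel1l followed at 0.52, Dnajb9 at 0.39 and Herpud1 at 0.38. In HMGN1-OE cells 4 were called (28.6% of all tested genes), Eif2ak3 at 0.90, Sel1l at 0.63, Ddit3 at 0.53 and Herpud1 at 0.40. On the deposited scale all 7 had negative values, so the rise is relative to other transcripts. The 10 members with an ERSE or ERSE-II in the window had a median change of -3.33 in WT cells and the 25 with a window but neither element a median of -3.54, with ranges of -4.86 to -1.94 and -4.57 to -0.99.

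**Figure D5:**
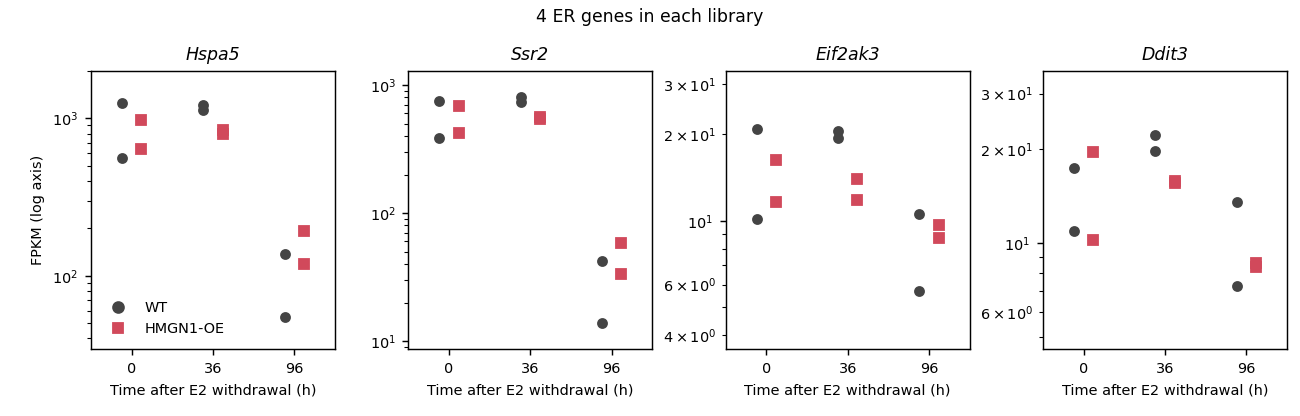
FPKM (log axis, with its own range in each panel) of Hspa5, Ssr2, Eif2ak3 and Ddit3 by hours after E2 withdrawal, with 1 point for each library of WT (circles) and HMGN1-OE (squares) cells. Hspa5 and Ssr2 drop at 96 h to below 200 and below 60 FPKM in all 4 libraries, whereas Eif2ak3 and Ddit3 stay between 5.71 and 13.5 FPKM.

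Other genes of the pathway were read in the same way. Of 58 further ER genes (signal recognition, processing, folding, degradation and stress response), 54 were called lower and 1 higher from 36 to 96 h in WT cells, with a median of -3.00, and 45 lower and 1 higher in HMGN1-OE cells, with a median of -1.87. Among all tested genes 86.3 and 64.9% were called lower, with medians of -2.21 and -1.33. After centring 36 of the 58 in WT and 31 in HMGN1-OE cells were called lower, against 33.7 and 32.3% of all tested genes. Txndc5, a disulfide isomerase, fell most (-5.13, SE 0.54, limma adjusted p = 3.63e-19 in WT). The gene called higher was Atf3, a stress-induced factor, by 1.92 in WT and 1.15 in HMGN1-OE cells (1.03 and adjusted p = 0.052 without the second HMGN1-OE library at 36 h), and it is named after its values were seen. Of 20 genes of ER exit and retrieval, 20 were called lower in WT and 19 in HMGN1-OE cells, and Lman1, a cargo receptor for exit, fell most (-4.60 and -3.31).

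From 36 to 96 h most primary granule transcripts fell and most secondary and tertiary ones rose. All 7 primary granule genes were called lower in WT and 6 of 7 in HMGN1-OE cells, against 86.3 and 64.9% of all tested genes, with Mpo down from 7066 and 5507 FPKM to 116 and 13.5 FPKM in WT and from 4147 and 2451 FPKM to 114 and 406 FPKM in HMGN1-OE cells. After centring 5 of 7 were called lower in WT and 3 of 7 in HMGN1-OE cells, against 33.7 and 32.3%. In HMGN1-OE cells the changes of Elane (-2.29, SE 0.60, limma adjusted p = 0.000539) and Prtn3 (-2.32, SE 0.62, adjusted p = 0.000627) were not called without the first library at 96 h (-1.43 and -1.67, adjusted p = 0.116 and 0.0746), after centring (-0.95 and -0.98, adjusted p = 0.231 and 0.141) or with no filter on low values (adjusted p = 0.115 and 0.107). Of the 10 secondary and tertiary granule genes, 8 in WT and 9 in HMGN1-OE cells were called higher. Among all tested genes in WT cells, 89.5% were called in either direction and 86.3% lower. In HMGN1-OE cells these shares were 69.0 and 64.9%. Ltf, lactoferrin, rose from 1.46 and 1.97 FPKM to 2040 and 1033 FPKM in WT and from 3.13 and 0.361 FPKM to 1212 and 856 FPKM in HMGN1-OE cells. The summed FPKM of these 10 genes was between 7.07 and 14.1 times that of the 41 ER genes in the 96 h libraries, lower in both HMGN1-OE than in both WT libraries, against at most 0.0441 times before. Transcript levels do not give the amount of ER protein present at 96 h.

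The fall of the ER genes from 36 to 96 h was smaller by fit in HMGN1-OE cells for all 41, but for none was the difference between genotypes called, beside 0.547% of all tested genes. The median of this difference was 1.23 (all tested genes 0.92), and leaving out a library moved it to between 0.55 and 1.88. After centring the median was 0.25 and 33 of the 41 were positive. The corresponding value for Mpo was 3.36 (SE 0.87, limma adjusted p = 0.0237), but this call was lost in 14 of 20 alternatives. Among them, it was 2.38 after centring (adjusted p = 0.677), 1.85 without the second WT library at 96 h (adjusted p = 0.808) and 2.45 without the second HMGN1-OE library at 96 h (adjusted p = 0.594).

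At 96 h itself, the fitted level in HMGN1-OE cells was above that in WT cells for 40 of the 41 ER genes, but none was called (0.669% of all tested genes were) and none had an unadjusted p under 0.05. The median difference was 0.70 beside 0.36 for all tested genes. Leaving out a library moved it to between 0.05, without the second WT library, the one with the lowest levels, and 1.38. Only for Xbp1 among the 41 did both HMGN1-OE libraries (106 and 152 FPKM) lie above both WT libraries (101 and 38.1 FPKM), against 10.2% of all tested genes, and its difference was 1.02 (SE 0.59, limma adjusted p = 0.859). Ddit3 was the member that was lower by fit, at -0.21 (SE 0.50, adjusted p = 0.887), and without the first WT library it was 0.19. After centring, 36 of the 41 were higher with a median of 0.30, 11 had an unadjusted p under 0.05 (17.9% of all tested genes did) and none was called. Of these 11, 10 were higher and Ddit3 was lower (-0.61, SE 0.15, limma adjusted p = 0.218). All 7 primary granule genes had a higher fitted level in HMGN1-OE cells at 96 h, and 3 were called, Elane by 2.5, Ctsg by 2.48 and Mpo by 2.39 (limma adjusted p = 0.00626, 0.0127 and 0.017). Both HMGN1-OE libraries lay above both WT libraries for Elane, Ctsg, Prtn3 and Ms4a3, while those of Mpo overlapped (116 and 13.5 FPKM in WT, 114 and 406 FPKM in HMGN1-OE cells). Prtn3 (2.11, adjusted p = 0.0883) and Ms4a3 (1.63, adjusted p = 0.708) were not called, but were without the first WT library at 96 h (3.37 and 2.67, adjusted p = 4.9e-05 and 0.00695). After centring none of the 7 was called (2.09, 2.08 and 1.99 for the 3, adjusted p = 0.218 to 0.225), nor were the 3 with quantile normalization, with no filter or without the trend. None of the 3 was called without the second WT library at 96 h (1.24, 1.32 and 0.88) or without the second HMGN1-OE library (1.64, 1.66 and 1.48). Eosinophil markers also differed, with a sum of 1040 to 2220 FPKM in WT and 247 to 525 FPKM in HMGN1-OE cells over 5 listed genes. Monocyte and macrophage markers summed to 376 to 717 FPKM in WT and 749 to 1330 FPKM in HMGN1-OE cells over 6 listed genes, mostly Ly6c2 (662 and 306 FPKM in WT, 702 and 1257 FPKM in HMGN1-OE cells), and the other 5 overlapped between the genotypes. Of the neutrophil maturation markers, S100a8 overlapped between the genotypes (69950 and 29370 FPKM in WT, 54570 and 83720 FPKM in HMGN1-OE cells), as did Itgam and Csf3r, and Cxcr2 was higher in both WT libraries (17.5 and 8.32 FPKM against 5.96 and 5.68 FPKM). The part of these cells in the genotype difference was not tested.

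Plasma cells are rich in ER transcripts, so their markers were read in each library. Ms4a1, a B cell antigen, and Igj, the immunoglobulin J chain, were listed near 0.1 FPKM, the value of genes without signal, in all 12 libraries. Sdc1, which marks plasma cells among other cells, ranged from 24.6 to 298 FPKM at 0 and 36 h and from 0.316 to 0.579 FPKM at 96 h. Mzb1, an ER protein of B and plasma cells, ranged from 1.45 to 115 FPKM and from 0.0272 to 1.63 FPKM. In the WT libraries at 36 h Sdc1 stood at 49.3 and 126 FPKM and Mzb1 at 1.45 and 115 FPKM. The part of such cells in the levels of the ER genes was not tested. Mast cell and basophil markers summed to 436 to 2740 FPKM at 0 and 36 h and to 122 to 523 FPKM at 96 h, so the ranges overlapped. Cpa3 (255 to 2013 against 39.1 to 168 FPKM) and Gata2 (23.3 to 68.4 against 2.08 to 12.4 FPKM) were lower at 96 h without overlap. Mcpt8, Fcer1a, Ms4a2 and Prss34 overlapped between these times. The part of such cells in the fall of the ER genes was not tested. Exons of 9 members overlap those of another protein-coding gene in GENCODE (Ddit3, Manf, Pdia3, Pdia6, Ppib, Rpn2, Spcs1, Spcs3 and Syvn1), and the library kit does not mark strand, so reads of the 2 genes could not be told apart there.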

How the data were processed

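The deposited table holds FPKM, 1 value per gene and library, for 23309 genes and 92 ERCC spike-in RNAs in 12 libraries. Per the study's methods, the authors lysed equal numbers of cells, added ERCC RNAs, prepared unstranded TruSeq polyA libraries, aligned the reads with Bowtie, computed RPKM and normalized by loess on the ERCC RNAs. The submitters' processing notes instead name HISAT, Cufflinks 2.0.0 and mm9, so the route from the reads to the table is uncertain, and no coordinates were taken for the values. The near-equal sums of the spike-ins (2700 to 2941 FPKM) show that the table was scaled to them, by a step that the table does not name. Replicates were not pooled. Normalization to spike-ins sets levels per cell where equal cell numbers were lysed and their RNA was recovered alike. A fall of total RNA then appears in nearly all genes. The depth is unknown: no value is exactly 0, and 6351 genes lie between 0.09 and 0.11 FPKM in all libraries, so no counting error is given.

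The 11516 genes that reached 1 FPKM in 2 or more libraries were tested on log2(FPKM + 1) with limma 3.58.1 in R 4.3.3 (lmFit, eBayes with trend), a mean for each of 6 groups, two-sided, with Benjamini-Hochberg adjustment over all tested genes of a comparison, and called at an adjusted p under 0.05. limma's prior degrees of freedom were infinite, so the variance of a gene was read off the trend, not its own replicates. With 2 libraries a group, the smallest p of an exact permutation test is 0.333. The step was also run on simulated data with noise drawn independently for each gene and library. Such data lack the shifts of whole libraries seen here, so that run does not test the calls under them. Groups came from the genotype and time in the column names. Alternatives were a pseudocount of 0.1, no filter, a mean of at least 5 FPKM, centring each library on its median, quantile normalization, limma without trend or with the robust option, leaving out each library, and, added after the data were seen, a block on the last digit of the column names. The gene lists and the members were chosen with earlier results of these data known. All 41 members could be named. Of the other lists, granule and marker genes could be named, and at most 12 further ER genes, those with the largest change from 36 to 96 h in WT cells. Promoter windows are those of RefSeq (GRCm38.p6), and overlaps those of GENCODE vM21. Protein sequences were not analysed here. Of the marker genes, 1 is not reported here. Tables and figures were made with Python 3.11.15, pandas 2.3.3, numpy 2.4.6 and matplotlib 3.10.9.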

Additional observations from a re-analysis of the deposited data

How the results depend on the processing

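The number of ER genes called, in either direction, stayed within 1.5 times its value in all 9 comparisons under every alternative, 180 recomputed counts. After centring, the counts from 36 to 96 h include genes called higher as well as genes called lower. Leaving out 1 library gave 39 to 41 calls from 36 to 96 h in WT, 26 to 38 in HMGN1-OE cells and 0 in the other 7 comparisons. Directions of single genes depended on the scale. For the change from 36 to 96 h in WT cells, centring on the library median and quantile normalization gave 0.39 and 0.53 for Dnajb9, 0.38 and 0.64 for Herpud1, 0.52 and 0.68 for Sel1l, 0.21 and 0.27 for Syvn1, 0.19 and 0.23 for Atf6, 1.07 and 1.11 for Eif2ak3, and 1.33 and 1.41 for Ddit3. In HMGN1-OE cells they gave 0.25 and 0.34 for Dnajb9, 0.40 and 0.58 for Herpud1, 0.63 and 0.73 for Sel1l, 0.12 and 0.17 for Syvn1, 0.049 and 0.094 for Atf6, 0.90 and 0.93 for Eif2ak3, and 0.53 and 0.57 for Ddit3. These shifts follow from the construction of the 2 scales, which remove the fall of the library median. The genotype difference at 36 h became 0.063 for Hspa5 with centring, and 0.21 and 0.20 for Dad1, and the WT change from 0 to 36 h became -0.091 and -0.15 for Rpn1. Over the fits that each left out 1 library, the genotype difference at 0 h ranged from -1.04 to 0.27 for Xbp1, the highest without the second WT library, and from -0.21 (without the first WT library) to 0.67 for Syvn1, which was -0.14 without the first HMGN1-OE library. That at 96 h ranged from -0.61 to 0.19 for Ddit3, the highest without the first WT library. With 1 library left, a group was assumed to vary like the others. The columns end in the digits 0 and 1, which no label ties to the replicate numbers 1 and 2 of the sample titles, so the planned block on those numbers was not run. A replicate block on the digits, added after the data were seen, left 40 and 36 ER genes called from 36 to 96 h and 0 in the other comparisons, and ended 6 granule calls (Prtn3 from 0 to 36 h in HMGN1-OE cells, Mpo and Ctsg between genotypes at 96 h, Ngp and Chi3l3 at 36 h, and the genotype by time value of Mpo, adjusted p = 0.0517 to 0.108). Like digits did not go together throughout: the digit differences of 2 groups correlated over all tested genes by -0.37 to 0.178, over 0.1 in 3 of 15 pairs of groups. The lowest values joined 0 h to 36 h within a genotype, -0.37 in WT and -0.292 in HMGN1-OE cells. A negative value means that unlike digits were more alike, which a block on the digits does not model. A pairing across digits was not tested. With 2 libraries a group and standard errors of 0.49 to 0.62 for the ER genes, genotype differences as large as that of Xbp1 at 96 h (1.02, limma adjusted p = 0.859) were not called on the deposited scale.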
